A study of Mus musculus with 6 samples.

Results

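A set of 10 genes that encode writers and erasers of DNA methylation and subunits of the Polycomb system was followed in LT-HSC (long-term haematopoietic stem cells), which reside in bone marrow and renew the blood throughout life. They are Dnmt1, Dnmt3a, Dnmt3b, Tet1, Tet2, Tet3, Ezh1, Ezh2, Asxl1 and Bmi1. They were taken from a table of 17997 genes by gene symbol, a rule that did not use their values, with earlier results of these data known. All 10 of 10 were in the table, and all 10 passed the filter on low values (at least 1 CPM in at least 2 libraries) that left 12657 genes for testing.

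The study sequenced LT-HSC sorted from the bone marrow of C57BL/6 mice of 8 to 11 weeks, in 3 genotypes with 2 biological replicates each. The NPMc_Flt3ITD group carried Flt3-ITD, a duplication within the gene of the cytokine receptor FLT3 that makes it signal without ligand, together with NPMc+, a nucleophosmin mutant displaced to the cytoplasm. The Flt3ITD group carried Flt3-ITD without NPMc+. The Mx group, which the design text names as the control, carried the MxCre transgene, a Cre recombinase driven by an interferon-inducible promoter. Whether the mutant mice also carried MxCre, and how many mice went into a library, is not given in the sources used here. NPMc+ was seen here only together with Flt3-ITD. RNA came from 3000 to 7000 sorted cells and was amplified by a SMART-seq protocol.

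DNA methylation marks cytosines next to guanines and is copied by DNMT1 at replication, while DNMT3A and DNMT3B set it on unmethylated DNA. The TET enzymes oxidise the methyl group, which leads to its removal. Polycomb repressive complex PRC2, with EZH1 or EZH2 as its catalytic subunit, methylates histone H3, and PRC1, of which BMI1 is a subunit, ubiquitylates histone H2A. ASXL1 is the cofactor of the deubiquitinase BAP1, which removes that ubiquitin. In blood stem cells these proteins govern self-renewal and lineage choice, and in humans DNMT3A, TET2, ASXL1 and EZH2 are recurrent sites of mutation in myeloid disease.

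The libraries held between 15618802 and 37038893 counted reads, and between 15.7% and 25.1% of these came from the pre-ribosomal RNA Rn45s. Values are the authors' normalised CPM, which scale the reads of a gene to a common effective library size. A list of 12 LT-HSC markers summed to 2120 and 1530 CPM in NPMc_Flt3ITD, to 1480 and 1350 CPM in Flt3ITD and to 2550 and 2390 CPM in Mx. Stem cell markers were thus present in every library, and their sum was lowest in Flt3ITD. The markers did not move as one. In NPMc_Flt3ITD against Flt3ITD the log2 fold change of limma was positive for 9 and negative for 3. The 3 were Esam, Tek and Fgd5, with means of 41.6, 5.50 and 5.35 CPM in NPMc_Flt3ITD and 51.4, 14.7 and 8.60 CPM in Flt3ITD. A list of 9 erythroid genes summed to 241 and 63.6 CPM in NPMc_Flt3ITD, 2080 and 1980 CPM in Flt3ITD, against 278 and 208 CPM in Mx. Its late members stayed low, with at most 3.49 CPM for Alas2 and at most 0.697 CPM for Slc4a1. A list of 7 neutrophil genes summed to 892 and 1010 CPM in NPMc_Flt3ITD, 272 and 1600 CPM in Flt3ITD, against 236 and 200 CPM in Mx. In the mutants its largest part was Mpo, at 631 and 432 CPM in NPMc_Flt3ITD and 254 and 848 CPM in Flt3ITD. S100a8 was at 31.6 and 210 CPM in NPMc_Flt3ITD, 3.74 and 269 CPM in Flt3ITD, against 68.2 and 28.1 CPM in Mx. Like S100a9, Ltf, Camp and Ngp, it was below Mx replicate 1 in replicate 1 of both mutants. In replicate 2 these genes were above Mx replicate 2. A list of 8 B and plasma cell genes summed to 48.2 and 303 CPM in NPMc_Flt3ITD, to 47.3 and 265 CPM in Flt3ITD and to 79.9 and 389 CPM in Mx. In replicate 2 of the mutants most of this was the plasma cell gene Igj, at 242 CPM in NPMc_Flt3ITD and 235 CPM in Flt3ITD, beside 82.3 CPM in Mx replicate 2. Of 7 of these genes tested, 2 fell in NPMc_Flt3ITD against Mx and 4 fell in Flt3ITD against Mx in limma. Among them, the pre-B cell gene Vpreb3, was at 0.150 and 0.953 CPM in NPMc_Flt3ITD, at 0.0657 and 0.570 CPM in Flt3ITD and at 9.67 and 48.7 CPM in Mx. The 4 markers of multipotent progenitors, the stage after LT-HSC, summed to 1650 and 2020 CPM in NPMc_Flt3ITD, to 1440 and 1530 CPM in Flt3ITD and to 626 and 711 CPM in Mx. The 5 megakaryocyte genes summed to 180 to 522 CPM and the 5 stromal and endothelial genes to 67.2 to 114 CPM. The 5 T cell genes summed to at most 9.33 CPM, and the endothelial gene Cdh5 reached at most 0.0634 CPM. In such bulk samples fewer cells of a type and less RNA per cell cannot be told apart.

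All 10 regulators were expressed in every library. Per kb of the annotated principal transcript, averaged over the 6 libraries, Dnmt1 had the highest level, at 41.5 CPM per kb, followed by Ezh2 at 28.8 and Dnmt3b at 20.3 CPM per kb. Dnmt1 ranked first in 6 of 6 libraries. Ezh1 (9.83 CPM per kb), Dnmt3a (9.61), Tet3 (8.58), Asxl1 (6.80) and Bmi1 (6.24) lay close together and changed places between libraries. Tet1 (4.90) and Tet2 (4.65) had the lowest means on this scale. The place of Tet3 rests on the transcript chosen, since with the longest annotated coding transcript (10904 bases against 5944) its level was 4.68 CPM per kb and its rank 9. The smallest number of reads behind any value was 299, for Bmi1 in Flt3ITD replicate 1.

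**Figure D1:**
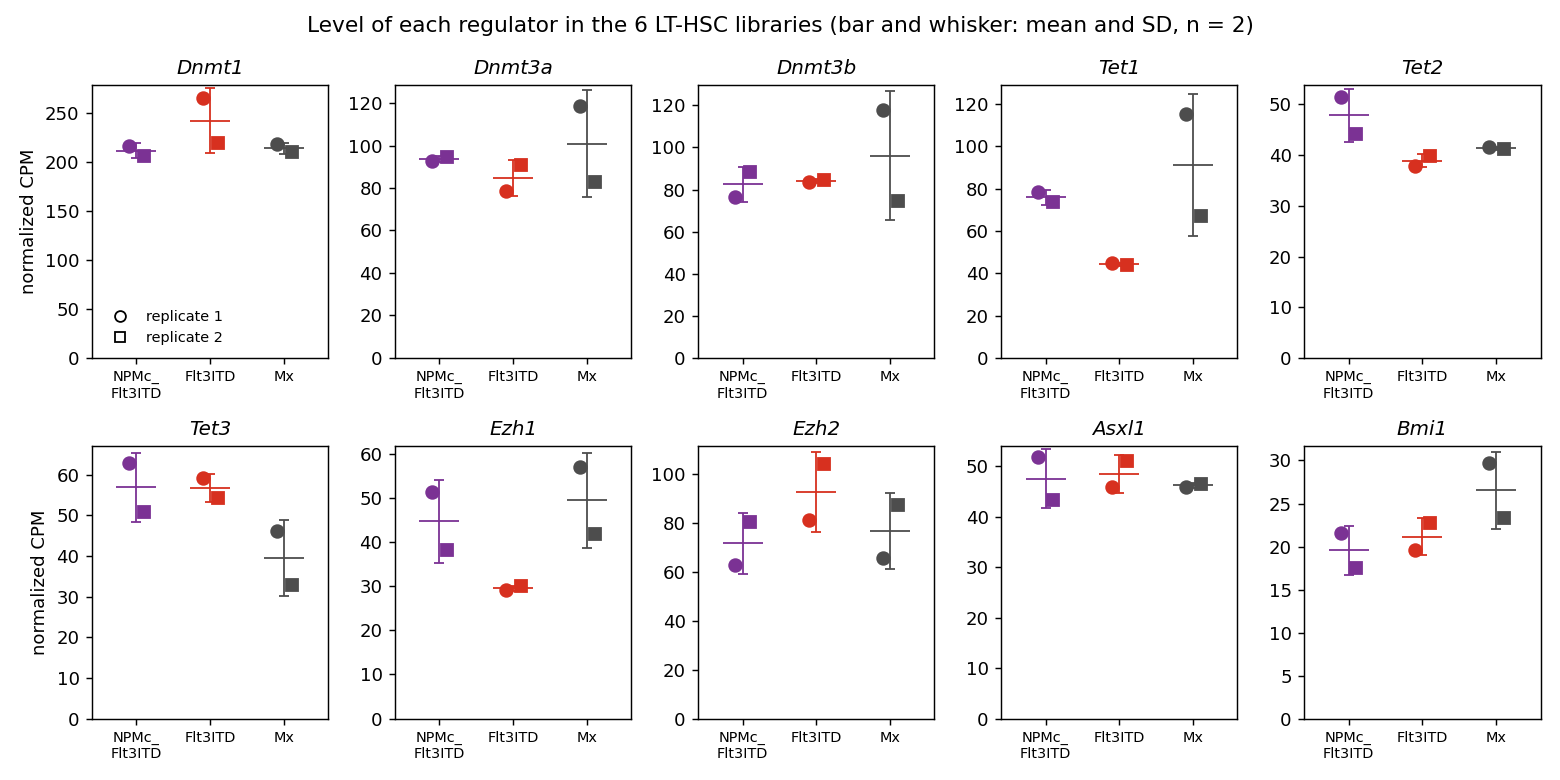
Level of each of the 10 regulators in normalised CPM (vertical axes, starting at 0) in the libraries of NPMc_Flt3ITD, Flt3ITD and Mx, with circles for replicate 1, squares for replicate 2, and the mean and SD (n = 2) as bar and whisker. Tet1 lies at 43.8 to 44.8 CPM in the Flt3ITD libraries and at 67.3 CPM or more in the other libraries, while Asxl1 lies between 43.4 and 51.7 CPM in all 6.

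No regulator passed the test of limma with Benjamini-Hochberg adjustment over all 12657 genes in any of the 3 comparisons. The comparisons that use Mx share its libraries, and those that use Flt3ITD share theirs. Of 10 regulators none was called in NPMc_Flt3ITD against Mx, where 1.17% of all tested genes were called (0.514% higher and 0.656% lower), in Flt3ITD against Mx, where 4.55% were called (2.12% higher and 2.43% lower), or in NPMc_Flt3ITD against Flt3ITD, where 1.18% were called (0.277% higher and 0.901% lower). At an unadjusted p under 0.05 there were 1 (Tet3), 3 (Tet1, Tet3 and Ezh1) and 2 (Tet1 and Ezh1) in the same order, that is 1, 3 and 2 of 10 where all tested genes gave 12.4%, 23.6% and 18.8%. EdgeR's quasi-likelihood test on the recovered reads also called none of the 10, where it called 0.822%, 2.38% and 0.727% of all tested genes in that order. DESeq2 called 1, Tet1 in Flt3ITD against Mx (log2 fold change -1.04, adjusted p = 0.00591), where it called 11.8% of all tested genes, so 1 of 10 is near that share. It called none of the 10 in NPMc_Flt3ITD against Mx (4.35% of all tested genes) or NPMc_Flt3ITD against Flt3ITD (8.04%). With the replicate number as a block in limma, Tet1 and Ezh1 fell in Flt3ITD against Mx (2 of 10, where 18.5% of all tested genes were called, 10.3% higher and 8.21% lower) and Tet1 rose in NPMc_Flt3ITD against Flt3ITD (1 of 10, where 12% were called, 4.88% higher and 7.07% lower). The block called none of the 10 in NPMc_Flt3ITD against Mx, where it called 5.44% of all tested genes (2.62% higher and 2.82% lower).

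A looser reading counts regulators whose libraries did not overlap between genotypes. In NPMc_Flt3ITD against Mx these were 3 of 10, with Tet2 and Tet3 higher and Bmi1 lower, where 42.5% of all tested genes did not overlap (20.4% higher and 22.1% lower). In Flt3ITD against Mx they were 6, with Dnmt1 and Tet3 higher and Tet1, Tet2, Ezh1 and Bmi1 lower, where 53.8% did not overlap (26.6% higher and 27.3% lower). In NPMc_Flt3ITD against Flt3ITD they were 6, with Dnmt3a, Tet1, Tet2 and Ezh1 higher and Dnmt1 and Ezh2 lower, where 48.2% did not overlap (24.4% higher and 23.8% lower). The shares of 3 and 6 in 10 lie close to those of all tested genes. The median size of the log2 fold change over the 10 regulators was 0.16 in NPMc_Flt3ITD against Mx, 0.25 in Flt3ITD against Mx and 0.17 in NPMc_Flt3ITD against Flt3ITD, beside 0.25, 0.37 and 0.32 over all tested genes.

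**Figure D2:**
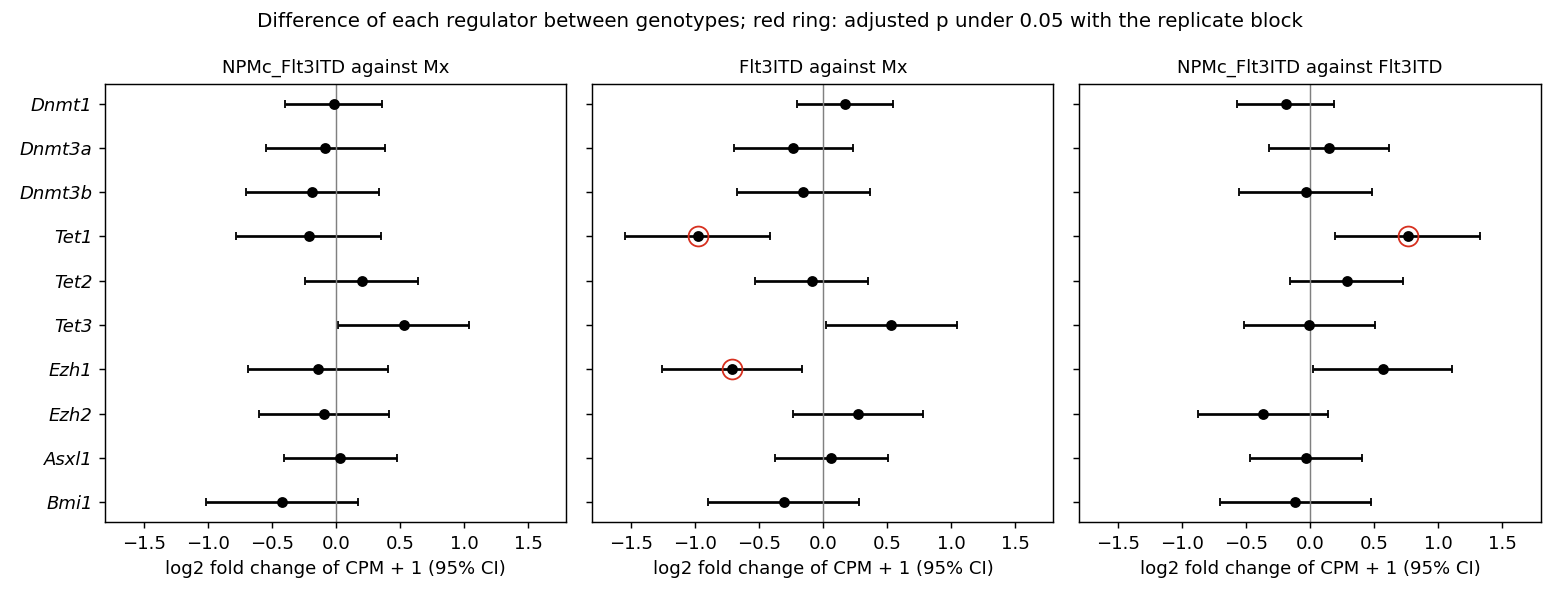
Log2 fold change of CPM + 1 with its 95% confidence interval from limma (horizontal axes) for the 10 regulators (rows) in each comparison, with a red ring where the adjusted p was under 0.05 with replicate number as a block. The rings mark Tet1 at -0.98 and Ezh1 at -0.71 in Flt3ITD against Mx, and Tet1 at 0.76 in NPMc_Flt3ITD against Flt3ITD.

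No methyltransferase gene passed limma in any comparison, with or without the replicate block. Dnmt1, which copies methylation at replication, was at 217 and 206 CPM in NPMc_Flt3ITD, 266 and 219 CPM in Flt3ITD, against 218 and 210 CPM in Mx. The higher Flt3ITD mean came from 1 library. Its log2 fold change was 0.17 in Flt3ITD against Mx (SE 0.17, 95% interval -0.20 to 0.55, adjusted p = 0.563), and -0.018 in NPMc_Flt3ITD against Mx (interval -0.39 to 0.36). The interval in Flt3ITD against Mx leaves room for a rise of up to 0.55 on the log2 scale.

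Dnmt3a, a de novo methyltransferase, was at 92.7 and 94.8 CPM in NPMc_Flt3ITD, 78.6 and 90.7 CPM in Flt3ITD, against 119 and 83.0 CPM in Mx. Its relative Dnmt3b was at 76.5 and 88.5 CPM in NPMc_Flt3ITD, 83.5 and 84.6 CPM in Flt3ITD, against 118 and 74.4 CPM in Mx. For both genes Mx replicate 1 stood above the other 5 libraries, whereas Mx replicate 2 lay among the mutant libraries for Dnmt3a and just below them for Dnmt3b. The log2 fold changes against Mx were -0.082 for Dnmt3a (SE 0.20, adjusted p = 0.927) and -0.18 for Dnmt3b (SE 0.23, adjusted p = 0.832) in NPMc_Flt3ITD, and -0.23 (adjusted p = 0.530) and -0.15 (adjusted p = 0.727) in Flt3ITD, all by limma. All 4 values turned positive without Mx replicate 1. The ratio of Dnmt3a to Dnmt3b CPM within a library was 1.21 and 1.07 in NPMc_Flt3ITD, 0.941 and 1.07 in Flt3ITD and 1.01 and 1.12 in Mx, and the genotypes overlapped.

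Of 24 genes of the DNA methylation machinery, a list that holds the DNMT and TET genes with their readers and cofactors, 22 were tested and none passed in any comparison by limma, with medians of 0.11, -0.090 and 0.12 on the log2 scale for NPMc_Flt3ITD against Mx, Flt3ITD against Mx and NPMc_Flt3ITD against Flt3ITD. At an unadjusted p under 0.05 there were 2, 4 and 6 of 22, where all tested genes gave 12.4%, 23.6% and 18.8%. Uhrf1, which brings DNMT1 to newly copied DNA, was at 113 and 99.7 CPM in NPMc_Flt3ITD, 184 and 176 CPM in Flt3ITD, against 171 and 132 CPM in Mx. Every NPMc_Flt3ITD library lay below every library of the other genotypes. The log2 fold change of Uhrf1 was -0.75 in NPMc_Flt3ITD against Flt3ITD (SE 0.18, adjusted p = 0.0801 in limma, or 0.00609 with the replicate block), and -0.50 in NPMc_Flt3ITD against Mx (adjusted p = 0.286, or 0.0531 with the block). With the block Mbd3, a subunit of a chromatin remodelling complex, was also higher in Flt3ITD against Mx (log2 fold change 0.78, adjusted p = 0.0273). So were Zbtb4, which binds methylated DNA, and Cxxc5, which binds unmethylated CpG sites, in NPMc_Flt3ITD against Flt3ITD (1.17 with adjusted p = 0.0460, and 0.77 with adjusted p = 0.0304). The block called 1 of the 22 higher and 1 lower in Flt3ITD against Mx, where it called 10.3% and 8.21% of all tested genes. In NPMc_Flt3ITD against Flt3ITD it called 3 higher and 1 lower, where the shares were 4.88% and 7.07%.

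Tet1 had the widest range of the 10 regulators, with its highest library 2.63 times its lowest. It was at 78.3 and 73.5 CPM in NPMc_Flt3ITD, 44.8 and 43.8 CPM in Flt3ITD, against 115 and 67.3 CPM in Mx. Both Flt3ITD libraries lay below all 4 others, and the NPMc_Flt3ITD libraries lay between the Mx libraries. The means were 75.9 ± 3.41 CPM in NPMc_Flt3ITD, 44.3 ± 0.721 CPM in Flt3ITD and 91.2 ± 33.8 CPM in Mx (SD, n = 2 each), of which Mx and NPMc_Flt3ITD did not differ beyond their spread. In Flt3ITD against Mx the mean was 0.485 times as high (log2 fold change -0.98, SE 0.25, interval -1.54 to -0.41). This did not pass limma (adjusted p = 0.0614) and passed with the replicate block (adjusted p = 0.00706). In NPMc_Flt3ITD against Flt3ITD it was 1.71 times as high (log2 fold change 0.76, SE 0.25, interval 0.20 to 1.33, adjusted p = 0.149, or 0.0283 with the block), and stayed between 0.72 and 0.81 on the log2 scale whichever library was left out. In NPMc_Flt3ITD against Mx the log2 fold change was -0.21 (interval -0.78 to 0.35, adjusted p = 0.820).

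The size of the Tet1 difference in Flt3ITD depended on the Mx library used, being -1.36 without Mx replicate 2 and -0.59 without Mx replicate 1 on the log2 scale, with adjusted p of at least 0.0556 whichever library was left out. Values of other lists moved with it. Flt3ITD, where Tet1 was lowest, also had the highest sums of erythroid, S phase and G2/M phase genes and the lowest sum of LT-HSC markers, with 4 of 8 tested erythroid genes risen and 5 of 12 LT-HSC markers and 4 of 7 tested B and plasma cell genes fallen against Mx in limma. Their part in the Tet1 difference was not tested.

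Tet3 had its lowest values in Mx. It was at 62.9 and 50.9 CPM in NPMc_Flt3ITD, 59.2 and 54.4 CPM in Flt3ITD, against 46.0 and 32.8 CPM in Mx. All 4 mutant libraries lay above both Mx libraries, and the mutant genotypes overlapped each other. Its log2 fold change was 0.53 in NPMc_Flt3ITD against Mx (SE 0.225, adjusted p = 0.381) and 0.53 in Flt3ITD against Mx (SE 0.225, adjusted p = 0.195), with no pass in limma with or without the block (adjusted p = 0.109 and 0.0539 with it). Between the mutant genotypes the log2 fold change was -0.0037, with an interval from -0.52 to 0.51.

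Tet2, the TET gene most often mutated in human myeloid disease, was at 51.5 and 44.1 CPM in NPMc_Flt3ITD, 37.9 and 39.8 CPM in Flt3ITD, against 41.6 and 41.1 CPM in Mx. The genotypes did not overlap, but the differences were small, the largest being 0.29 on the log2 scale in NPMc_Flt3ITD against Flt3ITD (SE 0.19, adjusted p = 0.469 in limma). In Flt3ITD against Mx the interval of the log2 fold change was -0.53 to 0.35.

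Set against each other within a library, Tet1 and Tet3 separated the genotypes. The ratio of Tet1 to Tet3 CPM, which does not depend on how libraries are scaled, was 1.25 and 1.44 in NPMc_Flt3ITD, 0.757 and 0.805 in Flt3ITD and 2.50 and 2.05 in Mx. The 3 genotypes did not overlap on this ratio, which was chosen after the values had been seen and is given without a test. Per kb of transcript Tet1 made up 25.2% and 27.7% of the summed TET level in NPMc_Flt3ITD, 18.1% and 18.4% in Flt3ITD and 39.5% and 31.9% in Mx, with the principal Tet3 transcript as its length. The summed TET level itself was 21.6 and 18.5 CPM per kb in NPMc_Flt3ITD, 17.2 and 16.5 in Flt3ITD and 20.3 and 14.7 in Mx, and overlapped between each mutant genotype and Mx.

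**Figure D3:**
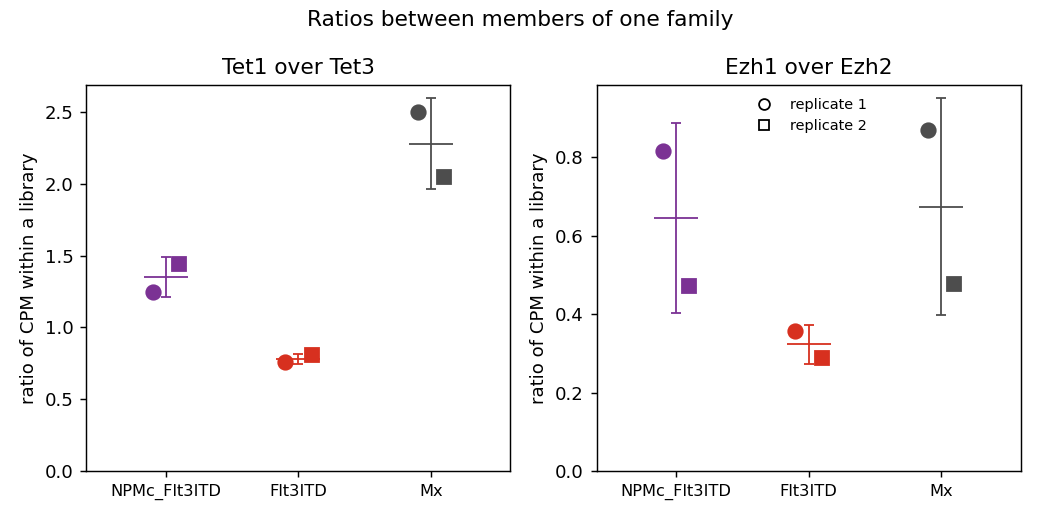
Ratio of CPM between members of a family within each library (vertical axes, starting at 0) for Tet1 over Tet3 and for Ezh1 over Ezh2 in NPMc_Flt3ITD, Flt3ITD and Mx, with circles for replicate 1, squares for replicate 2, and the mean and SD (n = 2) as bar and whisker. Tet1 over Tet3 separates the 3 genotypes, at 1.35 ± 0.141, 0.781 ± 0.0338 and 2.28 ± 0.317, whereas Ezh1 over Ezh2 is lowest in Flt3ITD (0.323 ± 0.0502) and overlaps between NPMc_Flt3ITD and Mx.

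Of the catalytic subunits of PRC2, Ezh1, the form that prevails in resting cells, had its lowest values in Flt3ITD. It was at 51.4 and 38.1 CPM in NPMc_Flt3ITD, 29.1 and 29.9 CPM in Flt3ITD, against 57.1 and 41.8 CPM in Mx. As for Tet1, both Flt3ITD libraries lay below all 4 others, and NPMc_Flt3ITD and Mx overlapped. The mean in Flt3ITD was 0.597 times that in Mx (log2 fold change -0.71, SE 0.24, interval -1.25 to -0.16, adjusted p = 0.123 in limma, or 0.0300 with the replicate block). Leaving out 1 library at a time gave log2 fold changes between -0.93 and -0.49. In NPMc_Flt3ITD against Flt3ITD the log2 fold change was 0.57 (SE 0.24, adjusted p = 0.248, or 0.0872 with the block), so this difference did not pass in either fit. In NPMc_Flt3ITD against Mx it was -0.14 (interval -0.69 to 0.40).

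Ezh2, the form that prevails in dividing cells, was at 62.9 and 80.5 CPM in NPMc_Flt3ITD, 81.2 and 104 CPM in Flt3ITD, against 65.6 and 87.5 CPM in Mx. In each genotype replicate 2 was the higher library, the Flt3ITD and Mx libraries overlapped, and both NPMc_Flt3ITD libraries lay below both Flt3ITD libraries by a narrow gap. The log2 fold change was 0.28 in Flt3ITD against Mx (SE 0.22, interval -0.23 to 0.78, adjusted p = 0.487) and -0.37 in NPMc_Flt3ITD against Flt3ITD (SE 0.22, interval -0.88 to 0.14, adjusted p = 0.422) in limma. Within a library the ratio of Ezh1 to Ezh2 CPM was 0.817 and 0.473 in NPMc_Flt3ITD, 0.358 and 0.287 in Flt3ITD and 0.870 and 0.478 in Mx. The Flt3ITD libraries were lowest, and in every genotype replicate 1 had the higher ratio.

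The promoters of Tet1 and Ezh1, which were low in the same libraries, are shown beside those of Ezh2 and Dnmt1, which were not. Each is the 300 bases from 250 before to 50 after the start, from RefSeq on GRCm38.p6, a later build than the mm9 of the processing notes. All 10 regulators had an entry. Capitals mark E2F words (TTTCCCGC, TTTGGCGC, TTTCGCGC or TTTGCCGC, the sites of the factors that drive S phase genes) and CCAAT boxes (CCAAT, bound by NF-Y), each sought on both strands. Adjacent CCAAT boxes on opposite strands can overlap. Of the 3 annotated starts of Dnmt1 the one farthest downstream is shown.
Tet1, chr10:62887275-62887574, minus strand: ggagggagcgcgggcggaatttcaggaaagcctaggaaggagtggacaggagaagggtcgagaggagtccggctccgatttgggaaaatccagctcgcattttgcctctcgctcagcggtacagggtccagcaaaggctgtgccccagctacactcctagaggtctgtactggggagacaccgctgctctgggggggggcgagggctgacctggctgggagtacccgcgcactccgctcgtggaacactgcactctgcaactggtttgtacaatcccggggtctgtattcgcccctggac
Ezh1, chr11:101226414-101226713, minus strand: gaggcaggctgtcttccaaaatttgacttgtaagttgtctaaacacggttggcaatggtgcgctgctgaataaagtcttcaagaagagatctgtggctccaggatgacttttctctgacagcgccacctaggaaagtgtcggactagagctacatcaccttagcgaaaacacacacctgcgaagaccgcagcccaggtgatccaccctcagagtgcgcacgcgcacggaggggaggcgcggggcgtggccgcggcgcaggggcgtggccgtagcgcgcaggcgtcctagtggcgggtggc
Ezh2, chr6:47594981-47595280, minus strand: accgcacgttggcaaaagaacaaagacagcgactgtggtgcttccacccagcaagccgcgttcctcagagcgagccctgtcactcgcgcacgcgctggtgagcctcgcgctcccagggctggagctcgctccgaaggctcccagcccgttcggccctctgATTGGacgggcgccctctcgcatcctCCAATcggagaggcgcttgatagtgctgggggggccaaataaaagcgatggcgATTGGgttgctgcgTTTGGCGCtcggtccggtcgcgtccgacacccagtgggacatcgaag
Dnmt1, chr9:20952574-20952873, minus strand: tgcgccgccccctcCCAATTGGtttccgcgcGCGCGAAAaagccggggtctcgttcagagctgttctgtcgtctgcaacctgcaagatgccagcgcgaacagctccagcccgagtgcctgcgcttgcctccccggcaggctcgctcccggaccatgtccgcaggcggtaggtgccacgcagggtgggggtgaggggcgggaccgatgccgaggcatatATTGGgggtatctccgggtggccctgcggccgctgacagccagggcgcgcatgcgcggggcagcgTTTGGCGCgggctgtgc

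None of these words was found in the windows of Tet1 and Ezh1. The same held for every window of Dnmt3a, Dnmt3b, Tet2, Asxl1 and Bmi1, so their absence was not particular to Tet1 and Ezh1. The Ezh2 window held 1 E2F word and 3 CCAAT boxes, and the Dnmt1 window held 2 E2F words and 3 CCAAT boxes. No other window of the 10 regulators held an E2F word, those of the other 2 Dnmt1 starts included, which held 5 and 0 CCAAT boxes. An E2F word was found in 2.26% of the 32851 windows of that length in RefSeq, and a CCAAT box in 37.4%. CpG dinucleotides, the substrate of the DNMT and TET enzymes, numbered 17 in the Tet1 window, 23 in Ezh1 and 31 in Ezh2. They numbered 33 in the Dnmt1 window shown and 2 and 12 at its other starts, against a median of 7 over all windows. The words were chosen with the expression values known, and a match describes the letters only.

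Among the other PRC2 genes Phf1 passed, with the replicate block only and in 1 comparison. Of 12 PRC2 genes, Ezh1 and Ezh2 included, 12 were tested and none passed in any comparison by limma. At an unadjusted p under 0.05 there were 0, 2 and 3 in NPMc_Flt3ITD against Mx, Flt3ITD against Mx and NPMc_Flt3ITD against Flt3ITD. All tested genes gave 12.4%, 23.6% and 18.8% in that order. The block called 2 of the 12, both lower, in Flt3ITD against Mx, where it called 8.21% of all tested genes lower. The core subunit Eed, which reads the mark that PRC2 writes, was at 23.8 and 43.5 CPM in NPMc_Flt3ITD, 37.5 and 52.3 CPM in Flt3ITD, against 32.1 and 37.1 CPM in Mx. The core subunit Suz12 was at 42.2 and 48.2 CPM in NPMc_Flt3ITD, 34.6 and 48.3 CPM in Flt3ITD, against 39.1 and 42.0 CPM in Mx. The log2 fold change of Suz12 was 0.011 in Flt3ITD against Mx, with an SE of 0.22. The accessory subunit Phf1 was at 19.5 and 17.2 CPM in NPMc_Flt3ITD, 10.3 and 9.63 CPM in Flt3ITD, against 20.9 and 18.9 CPM in Mx, so that it was lowest in the same libraries as Ezh1. Its log2 fold change in Flt3ITD against Mx was -0.93 (SE 0.27, adjusted p = 0.0846 in limma, or 0.0349 with the block).

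Bmi1, the PRC1 subunit needed for stem cell self-renewal, was at 21.6 and 17.5 CPM in NPMc_Flt3ITD, 19.6 and 22.7 CPM in Flt3ITD, against 29.7 and 23.4 CPM in Mx. All 4 mutant libraries lay below both Mx libraries, by a narrow gap for Flt3ITD replicate 2. The log2 fold change was -0.42 in NPMc_Flt3ITD against Mx (SE 0.26, interval -1.01 to 0.17, adjusted p = 0.602) and -0.31 in Flt3ITD against Mx (SE 0.26, interval -0.90 to 0.28, adjusted p = 0.509) in limma. The locus that BMI1 is known to repress in stem cells was close to silent, with Cdkn2a at no more than 0.189 CPM and Cdkn2b at no more than 0.0942 CPM in any library, both in Mx replicate 2. Neither gene passed the filter on low values.

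Of 24 PRC1 genes all were tested and none passed in limma. At an unadjusted p under 0.05 there were 3, 4 and 4 in NPMc_Flt3ITD against Mx, Flt3ITD against Mx and NPMc_Flt3ITD against Flt3ITD. All tested genes gave 12.4%, 23.6% and 18.8% in that order. Rnf2, which with Ring1 supplies the ubiquitin ligase of the complex, was at 91.0 and 83.0 CPM in NPMc_Flt3ITD, 62.3 and 67.6 CPM in Flt3ITD, against 107 and 85.0 CPM in Mx. It was lowest in both Flt3ITD libraries, and its log2 fold change against Mx was -0.55 (SE 0.18, adjusted p = 0.119 in limma, or 0.0325 with the block). Ring1 was at 6.25 and 7.02 CPM in NPMc_Flt3ITD, 17.1 and 8.33 CPM in Flt3ITD, against 2.44 and 9.47 CPM in Mx. The libraries spread widely within Flt3ITD and within Mx, and the log2 fold change in Flt3ITD against Mx was 1.11 (SE 0.55, adjusted p = 0.259). With the block Pcgf6, a relative of Bmi1 found in a variant PRC1, was higher in Flt3ITD against Mx (log2 fold change 1.08, adjusted p = 0.0388). So was Bcor, a variant PRC1 subunit, in NPMc_Flt3ITD against Flt3ITD (0.62, adjusted p = 0.0352). The block called 1 of 24 higher and 1 lower in Flt3ITD against Mx, where it called 10.3% and 8.21% of all tested genes. In NPMc_Flt3ITD against Flt3ITD it called 1 higher, where the share was 4.88%.

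Asxl1 varied least of the 10 regulators. It was at 51.7 and 43.4 CPM in NPMc_Flt3ITD, 45.8 and 51.1 CPM in Flt3ITD, against 45.9 and 46.5 CPM in Mx, and its highest library was 1.19 times its lowest. Its log2 fold change was 0.036 in NPMc_Flt3ITD against Mx (interval -0.40 to 0.48) and 0.066 in Flt3ITD against Mx (interval -0.37 to 0.51). Its catalytic partner Bap1 was at 97.9 and 62.2 CPM in NPMc_Flt3ITD, 84.3 and 76.9 CPM in Flt3ITD, against 104 and 110 CPM in Mx. Each mutant library was lower than each Mx library, and the log2 fold changes of -0.45 in NPMc_Flt3ITD (SE 0.22, adjusted p = 0.483) and -0.41 in Flt3ITD (SE 0.22, adjusted p = 0.306) did not pass limma. Of 9 genes of this complex 8 were tested, and none had an unadjusted p under 0.05 in any of the 3 comparisons in limma. All tested genes gave 12.4% in NPMc_Flt3ITD against Mx, 23.6% in Flt3ITD against Mx and 18.8% in NPMc_Flt3ITD against Flt3ITD.

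The genes that oppose Polycomb, the H3K27 demethylases and the trithorax-type methyltransferase genes with their subunits, held the only call of limma among the 5 chromatin lists. Of 12 genes listed, 9 had values and were tested. Of these 9, 1 fell in Flt3ITD against Mx, where 2.43% of all tested genes fell and 2.12% rose. None passed in NPMc_Flt3ITD against Mx or in NPMc_Flt3ITD against Flt3ITD, where 1.17% and 1.18% of all tested genes were called. The gene was Kdm6a, an X-linked demethylase that removes the mark written by EZH1 and EZH2, at 49.4 and 57.6 CPM in NPMc_Flt3ITD, 23.2 and 33.4 CPM in Flt3ITD, against 69.6 and 68.9 CPM in Mx. Its log2 fold change in Flt3ITD against Mx was -1.28 (SE 0.22, adjusted p = 0.0239). The NPMc_Flt3ITD libraries lay between the other genotypes, and in NPMc_Flt3ITD against Flt3ITD it was 0.91 (SE 0.22, adjusted p = 0.0837, or 0.0119 with the block). The call in Flt3ITD against Mx was lost without Mx replicate 1, Mx replicate 2 or Flt3ITD replicate 1. Those fits leave a group with 1 sample. It was also lost with no filter on low values. In the fit without Mx replicate 1 and in that with no filter, no gene at all was called in this comparison. These losses were therefore not particular to Kdm6a. Kdm6a is known to escape X inactivation, and Xist, which coats the silenced X, reached 259 and 625 CPM in NPMc_Flt3ITD, 37.2 and 547 CPM in Flt3ITD, against 1007 and 1038 CPM in Mx. The Y-linked gene Eif2s3y was at 72.0 and 48.2 CPM in NPMc_Flt3ITD, at 70.1 and 37.8 CPM in Flt3ITD and at 20.6 and 18.5 CPM in Mx, and rose in Flt3ITD against Mx (log2 fold change 1.36, adjusted p = 0.0495 in limma). The Y-linked Kdm5d and Ddx3y were likewise higher in every mutant library than in either Mx library, and did not pass in Flt3ITD against Mx without the block (adjusted p = 0.184 and 0.106, or 0.0575 and 0.0230 with it). All 6 libraries thus held RNA of Y-linked genes and Xist. The part of the sex of the animals in the Kdm6a difference was not tested.

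With the block further genes of this list passed. Kdm6a included, the block called 1 of 9 higher and 2 lower in Flt3ITD against Mx, where it called 10.3% and 8.21% of all tested genes. In NPMc_Flt3ITD against Flt3ITD it called 3 higher and none lower, where the shares were 4.88% and 7.07%. Ash2l, a subunit of the trithorax-type complexes, was higher (log2 fold change 0.88, adjusted p = 0.0335) and the methyltransferase gene Mll1 lower (-0.43, adjusted p = 0.0334) in Flt3ITD against Mx. The demethylase gene Kdm6b (0.625, adjusted p = 0.0343) and the methyltransferase gene Mll3 (0.57, adjusted p = 0.0274) were higher in NPMc_Flt3ITD against Flt3ITD.

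**Figure D4:**
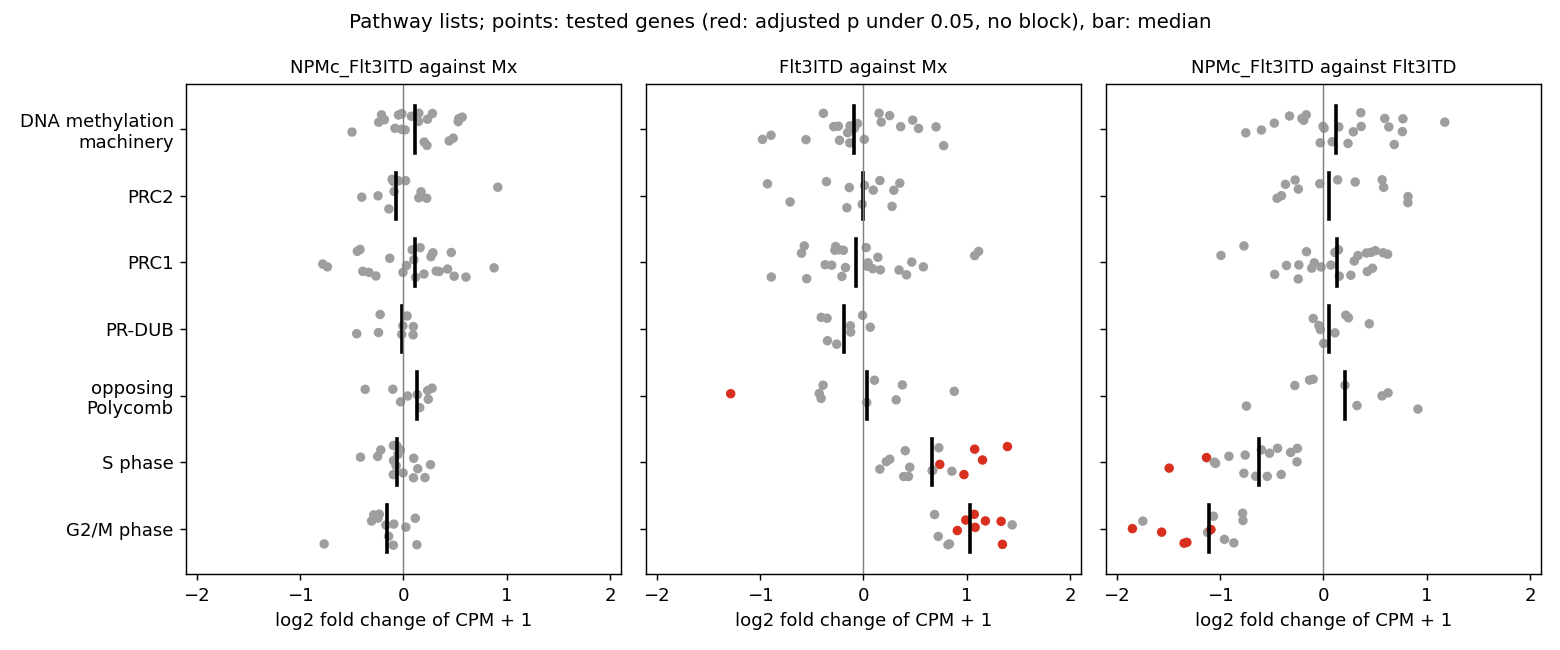
Log2 fold change of CPM + 1 (horizontal axes) of each tested gene in 5 lists of chromatin regulators and 2 cell cycle lists (rows) for each comparison, red where the adjusted p of limma without the block was under 0.05, with a black bar at the median. The chromatin lists have medians between -0.19 and 0.21, with Kdm6a as their single red point, while the G2/M phase list has a median of 1.03 in Flt3ITD against Mx and -1.10 in NPMc_Flt3ITD against Flt3ITD.

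Dnmt1, Uhrf1 and Ezh2 are known to be induced in dividing cells, so cell cycle genes were set beside them. Of 16 S phase genes 5 rose in Flt3ITD against Mx (median log2 fold change 0.67), 2 fell in NPMc_Flt3ITD against Flt3ITD (median -0.63) and none passed in NPMc_Flt3ITD against Mx (median -0.058). Of 12 G2/M phase genes 7 rose in Flt3ITD against Mx (median 1.03), 5 fell in NPMc_Flt3ITD against Flt3ITD (median -1.10) and none passed in NPMc_Flt3ITD against Mx (median -0.16). With the replicate block 11 S phase and 12 G2/M genes rose in Flt3ITD against Mx, 11 and 12 fell in NPMc_Flt3ITD against Flt3ITD, and 1 (Ccnb1) fell in NPMc_Flt3ITD against Mx. Among them the replication licensing gene Cdc6 rose by 1.39 on the log2 scale in Flt3ITD against Mx (adjusted p = 0.0137 in limma) and fell by 1.13 in NPMc_Flt3ITD against Flt3ITD (adjusted p = 0.0384). The mitotic cyclin gene Ccnb1 rose by 1.08 (adjusted p = 0.0239) and fell by 1.85 (adjusted p = 0.00434) in the same comparisons. All or nearly all calls of both lists without the block were lost when certain single libraries were left out. In Flt3ITD against Mx these were Mx replicate 1, Mx replicate 2 and Flt3ITD replicate 1. In NPMc_Flt3ITD against Flt3ITD they were Flt3ITD replicate 1 and either NPMc_Flt3ITD replicate. Such fits leave a group with 1 sample. Without Mx replicate 1 no gene at all was called in Flt3ITD against Mx, so that loss was not particular to these lists. The S phase list summed to 2480 and 2450 CPM in NPMc_Flt3ITD, 4110 and 3390 CPM in Flt3ITD, against 2670 and 2450 CPM in Mx. The G2/M list summed to 689 and 704 CPM in NPMc_Flt3ITD, to 1650 and 1360 CPM in Flt3ITD and to 716 and 820 CPM in Mx. Beside these medians, Dnmt1 had 0.17 and -0.19, Ezh2 0.28 and -0.37 and Uhrf1 0.25 and -0.75 on the log2 scale in Flt3ITD against Mx and in NPMc_Flt3ITD against Flt3ITD. The signs in these comparisons were those of the cell cycle lists. As both comparisons use the Flt3ITD libraries, their signs are not independent, and the higher Dnmt1 mean in Flt3ITD came from 1 library. In NPMc_Flt3ITD against Mx, Dnmt1 had -0.018, Ezh2 -0.090 and Uhrf1 -0.50, beside medians of -0.058 for S phase and -0.16 for G2/M phase genes. None of these 3 genes passed without the block, and with it Uhrf1 passed in NPMc_Flt3ITD against Flt3ITD (adjusted p = 0.00609). Whether the size of these values differs from that of the cell cycle genes was not tested.

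The genes whose pattern over the 6 libraries was most like that of the regulators past the threshold with the block were named from 7191 genes with a mean of at least 20 CPM. By Pearson's r of log2(CPM + 1) they were Thsd1 (0.995) and Acvr1b (0.992) for Tet1, and Phf6 (0.996) and Tnfrsf1a (0.994) for Ezh1. Acvr1b, an activin receptor gene, was at 22.6 and 20.5 CPM in NPMc_Flt3ITD, 13.4 and 11.6 CPM in Flt3ITD, against 32.7 and 20.5 CPM in Mx. Phf6 spanned a narrower range than Ezh1, at 89.1 and 81.7 CPM in NPMc_Flt3ITD, 73.9 and 75.6 CPM in Flt3ITD, against 91.9 and 82.6 CPM in Mx. With 6 points and so many genes compared, coefficients of this size describe the libraries and carry no test.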

How the data were processed

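The deposited table holds, per the file headers, normalized CPM from edgeR, a signal relative to an effective library size, for genes above 0 in at least 1 sample. The submitters' processing notes name the build mm9 and the tools HTSeq 0.6.1p1, edgeR 3.20.7, TopHat2 2.1.0, Bowtie2 2.2.4, CASAVA 1.8 and SAMtools 0.1.18. Which gene models were used, whether strand was, and how ambiguous reads were treated is not given in the sources used here. Isoforms cannot be told apart in 1 value per gene.

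Of 107982 values 100% came out as whole reads, within 0.01 reads, once divided by what 1 read is worth in their library. As reads carry no molecular identifiers, read numbers cover counting error only. Replicates are biological per the design text. Pearson correlations between libraries were 0.962 to 0.969 within and 0.927 to 0.955 between groups, so none was a copy.

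Limma 3.58.1 in R 4.3.3, with an intensity trend, was fitted to log2(CPM + 1) of 12657 genes in 6 libraries, with group as the term and 3 residual degrees of freedom. Fold changes are on this scale, which understates those of low genes. Adjusted p is by Benjamini-Hochberg over all tested genes, at 0.05. The alternatives included edgeR 4.0.16 and DESeq2 1.42.0 on recovered reads, whose threshold was the same. Same-numbered libraries deviated together (correlations of 0.259, 0.316 and 0.341 over genes), so the numbers were taken to pair them. No label states what a shared number marks, so this pairing rests on the values. Blocked values stand beside results whose call they change.

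The regulators, lists and tests were chosen with earlier results of these data known. Named genes were the 10 regulators, up to 4 genes of each list past the threshold per comparison, 8 core subunits and targets, and the 2 genes most like each regulator past the threshold. As no regulator passed without the block, the last part of the rule was applied to those that passed with it. List genes that passed with the block only were also named, and chosen after their values were seen. Transcript lengths are from GENCODE vM21 (GRCm38), with the longest coding transcript as an alternative chosen after seeing the data, and promoters are from RefSeq. In that annotation the only gene whose exons overlap those of a regulator is Gm26625, which runs opposite to Ezh2 over 92 bases.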

Additional observations from a re-analysis of the deposited data

How the results depend on the processing

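Over 16 alternatives to each of 30 fold changes of a regulator (480 values), 448 kept their direction and their side of the threshold, 6 passed it and 26 changed sign, none of them past the threshold in either setting. The regulators called in Flt3ITD against Mx numbered 2 with the replicate block (Tet1 at -0.98 and Ezh1 at -0.71) and 1 with library totals, with library totals without Rn45s and with DESeq2, each time Tet1 (adjusted p = 0.0318, 0.0492 and 0.00591). Over all tested genes in that comparison the block called 18.5% and DESeq2 11.8%. Library totals called 629 of 12657 genes, or 578 without Rn45s. In NPMc_Flt3ITD against Flt3ITD 1 regulator was called with the block (Tet1 at 0.76), which called 12% of all tested genes there. Leaving out 1 library gave 0 regulators called in every comparison. Scaling to library totals moved the median of all genes to -0.10 in Flt3ITD against Mx and -0.11 in NPMc_Flt3ITD against Mx. Asxl1 changed sign with it (to -0.047 and -0.091, or -0.057 and -0.061 without Rn45s). It also changed the share of higher calls in Flt3ITD against Mx from 46.5% to 28.9% of 629 calls, or 27.2% of 578 without Rn45s, and that in NPMc_Flt3ITD against Mx from 43.9% to 33.0% of 203. The log2 fold change of Tet3 in NPMc_Flt3ITD against Flt3ITD became 0.023 with library totals without Rn45s, 0.012 with edgeR and 0.00030 with DESeq2.

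Leaving out 1 library at a time, log2 fold changes in NPMc_Flt3ITD against Mx lay between -0.0555 and 0.0189 for Dnmt1, -0.34 and 0.17 for Dnmt3a, -0.51 and 0.14 for Dnmt3b, -0.59 and 0.17 for Tet1, -0.36 and 0.079 for Ezh1, -0.296 and 0.115 for Ezh2, and -0.089 and 0.16 for Asxl1. In Flt3ITD against Mx they lay between -0.49 and 0.024 for Dnmt3a, -0.48 and 0.17 for Dnmt3b, and -0.011 and 0.14 for Asxl1. In NPMc_Flt3ITD against Flt3ITD they lay between -0.135 and 0.073 for Dnmt3b, -0.154 and 0.146 for Tet3, -0.155 and 0.094 for Asxl1, and -0.26 and 0.031 for Bmi1.

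Over all tested genes, 148 were called in NPMc_Flt3ITD against Mx, 576 in Flt3ITD against Mx and 149 in NPMc_Flt3ITD against Flt3ITD. In that order the counts were 689, 2341 and 1513 with the replicate block, 27, 0 and 0 without a filter, and 550, 1489 and 1017 with DESeq2. EdgeR gave 301 and 92 in the last 2, and a fit of only the 2 groups gave 337 in Flt3ITD against Mx. Leaving out 1 library gave 20 to 168, 0 to 314 and 24 to 108. Where none was called, 3285 and 2586 genes without a filter and 1968 without Mx replicate 1 still had an unadjusted p under 0.05. The causes were not tested. A left-out library leaves its group with 1 sample, whose spread is then assumed to be that of the other groups. With 2 libraries a group, differences such as those of Dnmt3a and Dnmt3b rest on Mx replicate 1.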
